A study of Mus musculus with 24 samples.

Results

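The miR-30 family was followed in the mouse mammary gland through the rows of 8 named members in a table of 1009 miRNAs. The members are 5 miRNAs from the 5p arm of their hairpin precursors (mmu-miR-30a-5p, mmu-miR-30b-5p, mmu-miR-30c-5p, mmu-miR-30d-5p and mmu-miR-30e-5p) and 3 from the 3p arm (mmu-miR-30a-3p, mmu-miR-30b-3p and mmu-miR-30e-3p), written below without the prefix mmu for mouse. The rule that picks them is their names and uses no measured value, although the family was singled out with earlier results of these data known. Small RNA libraries were made from homogenized mammary glands (abdominal and inguinal by the methods, inguinal alone by the design text of the series) of 24 C57BL/6 females, 1 library for each mouse, and no transgene or treatment is named. The groups were adults aged 10 weeks (W10), late pregnancy at day 18 (P18), lactation at day 7 (Lac7) and involution at day 3 (Inv3), each with 6 mice. Involution is the regression of the gland once milk is no longer removed. Values are RPM, the reads of a miRNA scaled to the same total of listed miRNA reads in each library, and a library held 660346 to 1165321 such reads. A count of 3 reads, the limit that a count of 0 allows, was worth 2.57 to 4.54 RPM, and this limit covers counting error only.

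A miRNA guides the Argonaute protein to messenger RNAs that pair with its seed, the bases near its 5′ end, and this lowers the stability or translation of those messengers. The precursor hairpin is cut into a 5p and a 3p strand, and usually one of them is kept and the other is degraded. The 5p arms of the miR-30 family share a seed and are known to favour the formation of fat cells, and mice with forced expression of miR-30b in the mammary gland have a lactation defect.

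Mature sequences were found for 5 of the 8 members in the RefSeq table of build GRCm38.p6. They are printed 5′ to 3′ with the seed (bases 2 to 8) in capitals, because the seed groups the members and the bases outside it set apart members that are read as separate miRNAs.
miR-30a-5p: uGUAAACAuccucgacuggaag
miR-30e-5p: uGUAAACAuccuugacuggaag
miR-30c-5p: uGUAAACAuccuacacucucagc
miR-30a-3p: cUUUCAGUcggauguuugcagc
miR-30e-3p: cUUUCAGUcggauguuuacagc

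The 3 5p members with a sequence had the same seed, and the 2 3p members with a sequence shared another one. With positions counted from 1 at the 5′ end of miR-30a, miR-30a-5p and miR-30e-5p were identical at 21 of 22 positions and differed by C13U, while miR-30a-3p and miR-30e-3p differed by G18A alone. miR-30a-5p and miR-30c-5p were identical at 17 of 22 positions. How reads that could fit both miR-30a and miR-30e were divided is not given in the sources used here, so the split between these members is uncertain. Of 1679 mature names in the RefSeq table, 4 had this 5p seed, the fourth being miR-384-5p.
miR-384-5p: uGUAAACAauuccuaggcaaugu
The highest value of miR-384-5p in any mouse was 3.00 RPM, within the limit of 3 reads.

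The family lies in 3 pairs of genes in build GRCm38. Mir30a (chromosome 1, 23272269 to 23272339, plus strand) lies 19361 bases before Mir30c-2 (23291701 to 23291784), which overlaps an exon of the lincRNA Gm27028, while no other gene is annotated over Mir30a. Mir30c-1 (chromosome 4, 120769534 to 120769622, minus strand) and Mir30e (120772606 to 120772697) are 2983 bases apart in an intron of Nfyc, which encodes a subunit of the transcription factor NF-Y. Mir30b (chromosome 15, 68337415 to 68337510, minus strand) and Mir30d (68341208 to 68341289) are 3697 bases apart and lie in exons of the noncoding genes Gm26621 and Gm20732. Since Mir30c-1 and Mir30c-2 give the same miR-30c-5p, its reads cannot be assigned to one of the genes. The 8 members therefore share precursors and loci and are not independent of each other.

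The gland is a mixture of cells, and the libraries differed in miRNAs known from single cell types before any member was compared. The sum of 11 miRNAs of epithelium (the miR-200 and miR-183 families, miR-205-5p, miR-203-3p and miR-375-3p, with miR-200a-3p the most abundant) had its lowest, median and highest mouse at 21719, 23354 and 26495 RPM at W10, 58784, 69038 and 73321 RPM at P18, and 128256, 133497 and 148244 RPM at Lac7. At Inv3 the mice fell apart, with 29598 to 35310 RPM in mice 1, 2 and 5 and 67365 to 86794 RPM in mice 3, 4 and 6. The sum of 5 leukocyte miRNAs, led by miR-142a-5p, was 25590 and 28081 RPM in W10 mice 1 and 3 and 43418 to 48957 RPM in the other 4. It ran from 7095 to 23550 RPM at P18 (median 19403) and from 13122 to 23991 RPM at Inv3 (17217). At Lac7 mice 4 and 5 had 12161 and 12133 RPM and the other 4 had 3993 to 4834 RPM. The sum of 4 skeletal muscle miRNAs, led by miR-133a-3p, ran from 2378 to 24031 RPM at W10, with medians of 444, 2312 and 274 RPM at P18, Lac7 and Inv3, and the lowest Lac7 values were those of mice 4 and 5 (104 and 117 RPM against 2276 to 5001 RPM). None of the listed markers of these types was at 0 in all libraries of a stage. In whole tissue, fewer cells of a type and less RNA per cell cannot be told apart.

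The remaining lists are given by their medians. The 6 miRNAs known from fat summed to medians of 39839, 39081, 56188 and 30068 RPM at W10, P18, Lac7 and Inv3, a sum made up mostly of miR-103-3p (mean 34069 RPM at W10). Counted by member, limma called 0 fat miRNAs higher and 3 lower at P18 against W10 (median log2 fold change -0.94), 2 higher and 2 lower at Lac7 against W10 (-0.55) and 0 higher and 4 lower at Inv3 against W10 (-1.07). Of all 544 miRNAs tested, 12.1% were called higher and 29.4% lower at P18 against W10. The shares were 18.2% and 48.5% at Lac7 against W10, and 7.9% and 31.2% at Inv3 against W10. The 6 miRNAs of fibroblasts and smooth muscle had medians of 178174, 200187, 161362 and 293976 RPM in the same order, carried by miR-143-3p (mean 145529 RPM at P18). By member, 1 was higher and 4 lower at P18 against W10 (median -0.53), 1 higher and 4 lower at Lac7 against W10 (-1.19) and 2 higher and 3 lower at Inv3 against W10 (-0.33). At Inv3, 6 were higher and 0 lower than at Lac7 (1.06), against 27.9% and 18.9% of all miRNAs. Against P18, 3 were higher and 0 lower at Inv3 (0.24), with 10.8% and 17.6% of all miRNAs. This sum went against its list median at P18 and Inv3 against W10, and the fat sum went against its own at Lac7 against W10. In the other comparisons given here, the sum and the list median had the same direction. The pair of endothelial arms of miR-126a had 15626, 15672, 18470 and 16190 RPM. The 4 listed red blood cell miRNAs, led by miR-451a, had medians of 1213, 531, 995 and 867 RPM. The part of each of these lists in the values of the miR-30 members was not tested.

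On the RPM scale the 5p members together had their highest mean in the adult gland and their lowest in late pregnancy. They made up 1.96% ± 0.22 (SD, n = 6) of all miRNA reads at W10, 1.10% ± 0.07 of them at P18, 1.79% ± 0.15 at Lac7 and 1.40% ± 0.20 at Inv3. The lowest, median and highest mouse of the sum were 16718, 19805 and 22162 RPM at W10, 10396, 10675 and 12200 RPM at P18, 15405, 17929 and 19491 RPM at Lac7 and 10256, 14520 and 15518 RPM at Inv3. The mice of P18 overlapped those of Inv3 through Inv3 mouse 1 alone and lay below all mice of W10 and Lac7. As RPM have a fixed total, a level also depends on the other miRNAs. For comparison, the 8 let-7 5p arms with miR-98-5p, which made up 18.3%, 26.8%, 24.6% and 17.6% of the reads in the order of the stages, were high at P18 where the miR-30 sum was low. On a scale set by the typical miRNA (DESeq2 size factors), the 5p sum was 21352 rescaled RPM at Lac7, 16000 at W10, 14807 at Inv3 and 10616 at P18, so the order of W10 and Lac7 depended on the scale while P18 stayed lowest.

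**Figure D1:**
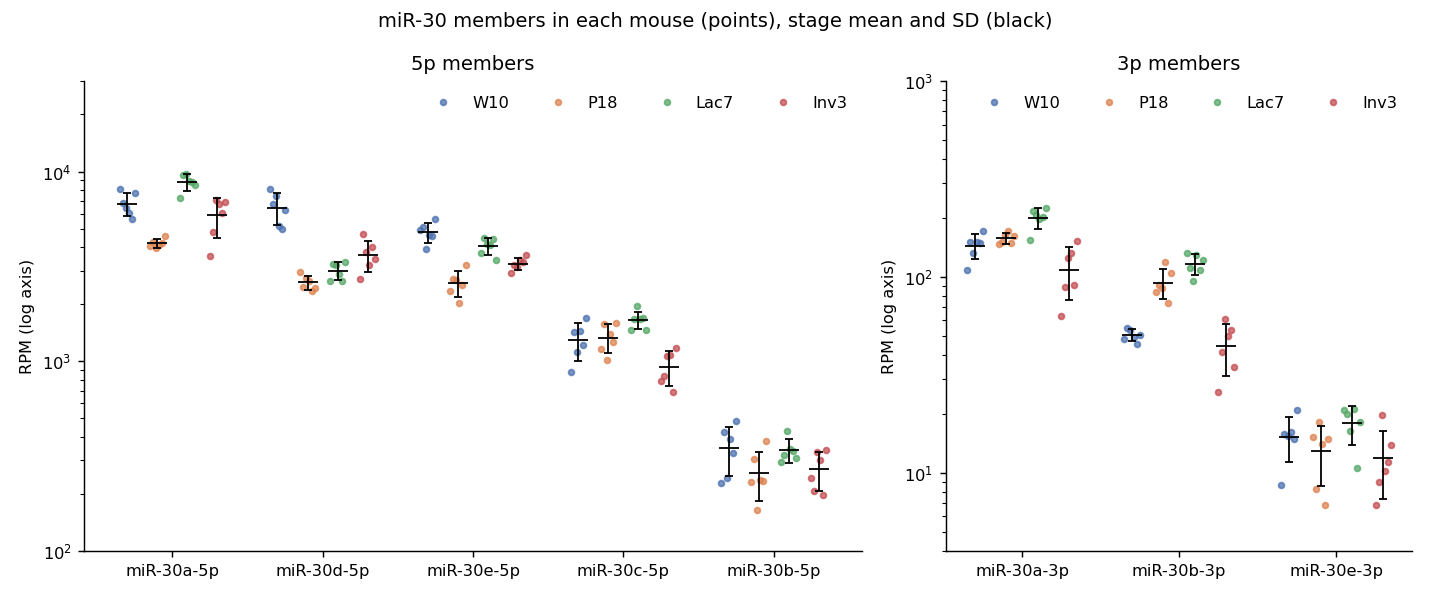
Level of each of the 8 miR-30 members in RPM (log axes) at W10, P18, Lac7 and Inv3. Points are mice (6 per stage), and the black bars give the mean and SD. miR-30a-5p is highest at Lac7, with 7284 to 9730 RPM, whereas miR-30d-5p is highest at W10, with 4980 to 8091 RPM.

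Changes between stages were tested for 544 miRNAs, including all 8 members, with limma on log2(RPM + 1), and adjusted p-values are Benjamini-Hochberg values over all 544 within a comparison. A log2 fold change on this scale understates the change of miRNAs of a few RPM. The 6 comparisons share stages, so their results are not independent.

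miR-30a-5p, the most abundant member by mean at every stage, was lowest in pregnancy and highest in lactation. Its lowest, median and highest mouse were 5599, 6608 and 8060 RPM at W10, 3968, 4150 and 4576 RPM at P18, 7284, 8893 and 9730 RPM at Lac7 and 3597, 6409 and 7102 RPM at Inv3. No P18 mouse overlapped W10 or Lac7, and no Lac7 mouse overlapped Inv3. The mean at P18 was 1.61 times lower than at W10 (log2 fold change -0.68 ± 0.14 SE, adjusted p = 0.00017), the mean at Lac7 was 2.11 times that at P18 (1.07 ± 0.14, adjusted p = 2.87e-07), and the mean at Inv3 was 1.5 times lower than at Lac7 (-0.62 ± 0.14, adjusted p = 0.00043). In the order Lac7, W10, Inv3 and P18, the neighbours W10 and Inv3 did not differ beyond the spread (adjusted p = 0.17), whereas Lac7 against W10 (0.39, adjusted p = 0.014) and Inv3 against P18 (0.45, adjusted p = 0.014) passed the test. The low Inv3 values were those of mice 1, 2 and 5 (3597, 4775 and 6074 RPM), while mice 3, 4 and 6, which had more of the epithelial miRNAs, had 7102, 6744 and 6945 RPM. Other lists split these mice too. The fibroblast and smooth muscle sum was 302980 to 350395 RPM in mice 1, 2 and 5 and 257580 to 284972 RPM in mice 3, 4 and 6. The endothelial sum was 12532 to 15656 RPM and 16725 to 17959 RPM in the same order. Without mice 1, 2 and 5, Inv3 against Lac7 was at -0.34 (adjusted p = 0.019) and Inv3 against P18 at 0.73 (adjusted p = 2.91e-05). The fall from W10 to P18 was -0.43 (adjusted p = 0.013) with size factors, -0.39 (adjusted p = 0.027) with edgeR and -0.44 (adjusted p = 0.0045) with DESeq2.

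miR-30e-5p, which differs from miR-30a-5p by a single base, also fell in pregnancy. The lowest, median and highest mouse were 3900, 4759 and 5593 RPM at W10, 2028, 2602 and 3217 RPM at P18, 3426, 4130 and 4471 RPM at Lac7 and 2921, 3273 and 3617 RPM at Inv3. The P18 mice lay below all mice of W10 and Lac7, and the Inv3 mice below all mice of W10. The mean at P18 was 1.85 times lower than at W10 (log2 fold change -0.89 ± 0.11, adjusted p = 2.32e-07) and rose 1.57 times to Lac7 (0.65 ± 0.11, adjusted p = 1.83e-05). Against W10, Lac7 was at -0.24 (adjusted p = 0.056) on the RPM scale and at 0.32 (adjusted p = 0.017) with size factors, so no direction is given between these 2 stages (it was called lower at Lac7 without W10 mouse 3, -0.30 with adjusted p = 0.021, without Lac7 mouse 2, -0.27 with adjusted p = 0.045, without W10 mice 1 and 3, -0.30 with adjusted p = 0.028, and with a filter at 100 RPM, -0.24 with adjusted p = 0.04). Inv3 was below W10 (-0.54, adjusted p = 0.00029), but at -0.16 with adjusted p = 0.29 with size factors. Inv3 against Lac7 (-0.30, adjusted p = 0.024) and Inv3 against P18 (0.35, adjusted p = 0.018) also passed. Without Inv3 mouse 1 the value against Lac7 was -0.27 (adjusted p = 0.056), without Lac7 mouse 2 it was -0.27 (0.057), without Lac7 mouse 5 it was -0.28 (0.053), without Lac7 mice 4 and 5 it was -0.27 (0.10), without Inv3 mice 1, 2 and 5 it was -0.25 (0.14) and with no filter on low values it was -0.30 (0.057), while size factors gave -0.48 (0.00085). Without P18 mouse 4, the value against P18 was 0.28 (0.061).

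miR-30d-5p was highest in the adult gland of W10. The mice ranged from 4980 to 8091 RPM at W10 (median 6492), from 2359 to 2957 RPM at P18 (2564), from 2637 to 3353 RPM at Lac7 (3056) and from 2707 to 4667 RPM at Inv3 (3612). No mouse of the other 3 stages reached the lowest W10 mouse. The mean at W10 was 2.47 times that at P18 (log2 fold change -1.29 ± 0.13, adjusted p = 9.98e-09), 2.15 times that at Lac7 (-1.09 ± 0.13, adjusted p = 3.74e-08) and 1.77 times that at Inv3 (-0.82 ± 0.13, adjusted p = 1.58e-05). With size factors these differences were -1.04, -0.53 and -0.44 and still passed. Lac7 did not differ from P18 (0.20, adjusted p = 0.21) or from Inv3 (0.26, adjusted p = 0.10) beyond the spread on the RPM scale, and Inv3 was above P18 (0.47, adjusted p = 0.0079). With size factors Lac7 was above P18 (0.51, adjusted p = 0.003), and without Inv3 mouse 1 the value of Inv3 against Lac7 was 0.34 (adjusted p = 0.031). The highest W10 values, 8091 and 7423 RPM, were those of mice 1 and 3, which had the lowest leukocyte sums of W10. These mice also had its highest fat sums, 44455 and 50666 RPM, against 37265 to 41935 RPM in the other W10 mice. The relation of miR-30d-5p to either sum was not tested. Without W10 mice 1 and 3 the differences of P18, Lac7 and Inv3 from W10 were -1.14, -0.94 and -0.68 and still passed.

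miR-30c-5p had its highest mean at Lac7 and its lowest at Inv3. The mice ranged from 874 to 1695 RPM at W10 (median 1323), from 1009 to 1591 RPM at P18 (1327), from 1461 to 1944 RPM at Lac7 (1671) and from 686 to 1170 RPM at Inv3 (948). All Inv3 mice lay below all Lac7 mice. The mean at Lac7 was 1.76 times that at Inv3 (log2 fold change -0.84 ± 0.16, adjusted p = 7.16e-05), and this was as clear with size factors (-1.01, adjusted p = 4.99e-07). Lac7 against P18 did not pass on the RPM scale (0.32, adjusted p = 0.094, with overlapping mice), whereas it passed with size factors (0.63, adjusted p = 0.0003), edgeR (0.47, adjusted p = 0.0082), DESeq2 (0.62, adjusted p = 1.73e-05) and a fit of the 12 libraries compared (0.32, adjusted p = 0.037). W10 and P18 were close (0.05, 95% interval -0.27 to 0.37, adjusted p = 0.82), so that a change within this interval cannot be told from none. Lac7 was above W10 (0.37, adjusted p = 0.036), a call that was lost without any 1 of 3 W10 mice (1, 3 or 5) or 4 Lac7 mice (2, 3, 4 or 5), with adjusted p between 0.054 and 0.12, without Lac7 mice 4 and 5 together (0.35, adjusted p = 0.09), without W10 mice 1 and 3 together (0.19, adjusted p = 0.28) or with no filter on low values (0.37, adjusted p = 0.064). It passed with size factors (0.93, adjusted p = 8.47e-07). Inv3 was below W10 (-0.46, adjusted p = 0.018) on the RPM scale but not with size factors (-0.08, adjusted p = 0.72), nor without W10 mouse 7 (-0.38, adjusted p = 0.06) or Inv3 mouse 5 (-0.38, adjusted p = 0.06), nor without Inv3 mice 1, 2 and 5 (-0.20, adjusted p = 0.36) or in a fit of the 12 libraries compared (-0.46, adjusted p = 0.051). Inv3 was below P18 (-0.51, adjusted p = 0.014), but at -0.25 with adjusted p = 0.31 without Inv3 mice 1, 2 and 5.

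miR-30b-5p, the least abundant 5p member, ranged from 228 to 481 RPM at W10 (median 358), from 165 to 380 RPM at P18 (235), from 296 to 430 RPM at Lac7 (327) and from 197 to 342 RPM at Inv3 (272). The mice of all 4 stages overlapped. limma on the RPM scale called 0 of 6 comparisons, with 2 of 6 at an unadjusted p under 0.05, while limma with size factors called 3, and edgeR called 2 and DESeq2 called 3 on the whole reads recovered from the RPM. Without P18 mouse 6, P18 was called against W10 (-0.54, adjusted p = 0.028) and Lac7 against P18 (0.55, adjusted p = 0.025). W10 mice 1 and 3 were the lowest of their stage (228 and 241 RPM, against 327 to 481 RPM in the others). Without these mice the log2 difference of P18 from W10 went from -0.42 (adjusted p = 0.09) to -0.68 (adjusted p = 0.0075) and that of Inv3 from -0.34 (adjusted p = 0.17) to -0.60 (adjusted p = 0.019).

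The 3p members were rarer by mean than every 5p member, and the 2 more abundant ones had their highest mean in lactation. miR-30a-3p ranged from 109 to 172 RPM at W10 (median 150), from 148 to 171 RPM at P18 (156), from 155 to 226 RPM at Lac7 (204) and from 63.5 to 152 RPM at Inv3 (108). No Inv3 mouse overlapped Lac7, and Inv3 mouse 6 at 152 RPM came close to the lowest Lac7 mouse at 155 RPM. The mean at Lac7 was 1.84 times that at Inv3 (log2 fold change -0.92 ± 0.17, adjusted p = 7.01e-05), or -0.54 (adjusted p = 0.0084) without Inv3 mice 1, 2 and 5. It was 1.39 times that at W10 (0.48 ± 0.17, adjusted p = 0.016), a call lost without W10 mice 1 and 3 (0.35, adjusted p = 0.098). Inv3 was also below P18 (-0.58, adjusted p = 0.011), but at -0.20 with adjusted p = 0.39 without Inv3 mice 1, 2 and 5, and at -0.43 with adjusted p = 0.062 with edgeR. Inv3 against W10 (-0.45, adjusted p = 0.039) lost its call with size factors (-0.07, adjusted p = 0.81) and without any 1 of 7 mice (W10 mice 2, 4, 5 and 7 and Inv3 mice 1, 2 and 5), with adjusted p between 0.065 and 0.12, and it was -0.07 (adjusted p = 0.76) without those 3 Inv3 mice together, -0.45 (adjusted p = 0.074) with no filter on low values and -0.45 (adjusted p = 0.12) in a fit of the 12 libraries compared. Lac7 against P18 did not pass on the RPM scale in the model of 4 stages (0.34, adjusted p = 0.11). It passed in a fit of the 12 libraries compared (0.34, adjusted p = 0.011) and with size factors (0.64, adjusted p = 0.0018). edgeR (0.51, adjusted p = 0.015) and DESeq2 (0.66, adjusted p = 8.52e-05) also called it. P18 against W10, at 0.14 (adjusted p = 0.54), was called higher by edgeR (0.43, adjusted p = 0.038) and DESeq2 (0.38, adjusted p = 0.038).

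miR-30b-3p had the largest rise of the members between W10 and Lac7. For miR-30b-5p from the same hairpin this comparison was at 0.0038 (adjusted p = 0.99) with limma on the RPM scale, but it was called higher with size factors (0.56, adjusted p = 0.008), edgeR (0.43, adjusted p = 0.044) and DESeq2 (0.52, adjusted p = 0.0092). The mice ranged from 45.5 to 55.1 RPM at W10 (median 50.1), from 73.8 to 119 RPM at P18 (89.2), from 94.9 to 132 RPM at Lac7 (117) and from 25.7 to 61.3 RPM at Inv3 (45.8). The mice of P18 and of Lac7 lay above all mice of W10 and of Inv3. The mean rose 1.85 times from W10 to P18 (log2 fold change 0.86 ± 0.18, adjusted p = 0.00027), stood at 2.30 times the W10 mean at Lac7 (1.18 ± 0.18, adjusted p = 1.74e-06) and was 2.62 times lower at Inv3 than at Lac7 (-1.42 ± 0.18, adjusted p = 2.65e-07). Inv3 was also below P18 (-1.09, adjusted p = 3.59e-05). Lac7 against P18 (0.32, adjusted p = 0.14) did not pass on the RPM scale but did with size factors (0.63, adjusted p = 0.0054), and W10 and Inv3 (-0.23, adjusted p = 0.3) did not differ beyond the spread. These values rest on 25 to 110 reads per library, with a 95% counting interval (Wilson) that reached at most 32.3% below and 47.6% above the value.

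miR-30e-3p rested on 7 to 21 recovered reads per library, the 21 being in W10 mouse 7, and ranged from 6.87 to 21.3 RPM over all mice, with means of 15.3, 12.9, 17.9 and 11.9 RPM at W10, P18, Lac7 and Inv3. limma on the RPM scale called 0 of 6 comparisons, with 1 at an unadjusted p under 0.05, while limma with size factors called 3, edgeR 1 and DESeq2 3. Inv3 against Lac7, at -0.59 (adjusted p = 0.078), was also called without Lac7 mouse 5 (-0.73, adjusted p = 0.035) or Inv3 mouse 3 (-0.75, adjusted p = 0.029). Its 95% counting intervals (Wilson) reached 34.6% to 51.6% below and 52.8% to 106% above the value, so that small changes were not detectable at this depth.

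The members are counted here by comparison, beside the share of all miRNAs that passed. From W10 to P18, 4 of 8 members changed (miR-30b-3p higher, miR-30a-5p, miR-30d-5p and miR-30e-5p lower), against 41.5% of all 544 miRNAs tested (12.1% higher and 29.4% lower). The median log2 fold change was -0.34 over the members and -0.32 over all miRNAs. The mice of 4 members did not overlap between these stages, against 26.7% of all miRNAs. With size factors the same 1 higher and 3 lower members passed, against 17.3% and 22.3% of all miRNAs.

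From P18 to Lac7, 2 of 8 members changed, miR-30a-5p and miR-30e-5p, both higher, against 45.2% of all miRNAs (13.8% higher and 31.4% lower). The member median was 0.38 and the median of all miRNAs was -0.34. The mice of 2 members did not overlap, against 29% of all miRNAs. All 8 members had a fold change above 0, and with size factors all 8 passed as higher, against 19.5% of the 539 miRNAs tested on that scale.

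From Lac7 to Inv3, 5 of 8 members fell (miR-30a-5p, miR-30c-5p, miR-30e-5p, miR-30a-3p and miR-30b-3p), against 46.9% of all miRNAs changed (27.9% higher and 18.9% lower). The medians were -0.61 for the members and 0.28 for all miRNAs, and the mice of 4 members did not overlap, against 24.8% of all miRNAs. miR-30d-5p was the only member with a fold change above 0, at 0.26 and not called. With size factors 7 members fell, against 22.6% of all miRNAs, and miR-30d-5p stood at 0.09.

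From W10 to Lac7, 4 members rose (miR-30a-5p, miR-30c-5p, miR-30a-3p and miR-30b-3p) and miR-30d-5p fell, where 66.7% of all miRNAs changed (18.2% higher and 48.5% lower). The medians were 0.30 for the members and -0.66 for all miRNAs, and the mice of 2 members did not overlap, against 41.7% of all miRNAs. With size factors 7 members rose, against 24.7% of all miRNAs, and miR-30d-5p still fell, as did 37.7% of all.

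Between W10 and Inv3, 4 members were lower at Inv3 (miR-30c-5p, miR-30d-5p, miR-30e-5p and miR-30a-3p), against 39.2% of all miRNAs changed (7.9% higher and 31.2% lower), and both medians were -0.41. The mice of 2 members did not overlap, against 15.1% of all miRNAs. With size factors miR-30d-5p alone was lower, against 16.7% of all miRNAs. Without Inv3 mice 1, 2 and 5, 2 members (miR-30d-5p and miR-30e-5p) were called on the RPM scale, against 40.7% of the 551 miRNAs tested without these mice.

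Between P18 and Inv3, 6 members differed, with miR-30a-5p, miR-30d-5p and miR-30e-5p higher and miR-30c-5p, miR-30a-3p and miR-30b-3p lower at Inv3, against 28.5% of all miRNAs (10.8% higher and 17.6% lower). The medians were -0.02 for the members and -0.11 for all miRNAs, and the mice of 1 member, miR-30b-3p, did not overlap, against 12.5% of all miRNAs. Size factors gave the same split of 3 members higher and 3 lower, against 12.4% and 13.9% of all miRNAs. Without Inv3 mice 1, 2 and 5, 4 members (miR-30a-5p, miR-30d-5p, miR-30e-5p and miR-30b-3p) were called on the RPM scale, against 24% of the 551 miRNAs tested. Size factors moved the median over all miRNAs by 0.23, 0.21, -0.12, 0.38, 0.32 and 0.09 in the 6 comparisons, in the order given here. A size factor rescales all miRNAs of a library alike, so the members moved by similar amounts within a comparison, apart from the effect of the added 1 RPM on rare miRNAs. At Lac7 against W10, miR-30a-5p went from 0.39 to 0.94 and miR-30d-5p from -1.09 to -0.53. In the other comparisons miR-30a-5p went from -0.68 to -0.43 at P18 against W10, from 1.07 to 1.37 at Lac7 against P18 and from -0.62 to -0.80 at Inv3 against Lac7. It went from -0.23 to 0.15 at Inv3 against W10 and from 0.45 to 0.58 at Inv3 against P18. The median over all miRNAs moved less than miR-30a-5p in each comparison.

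**Figure D2:**
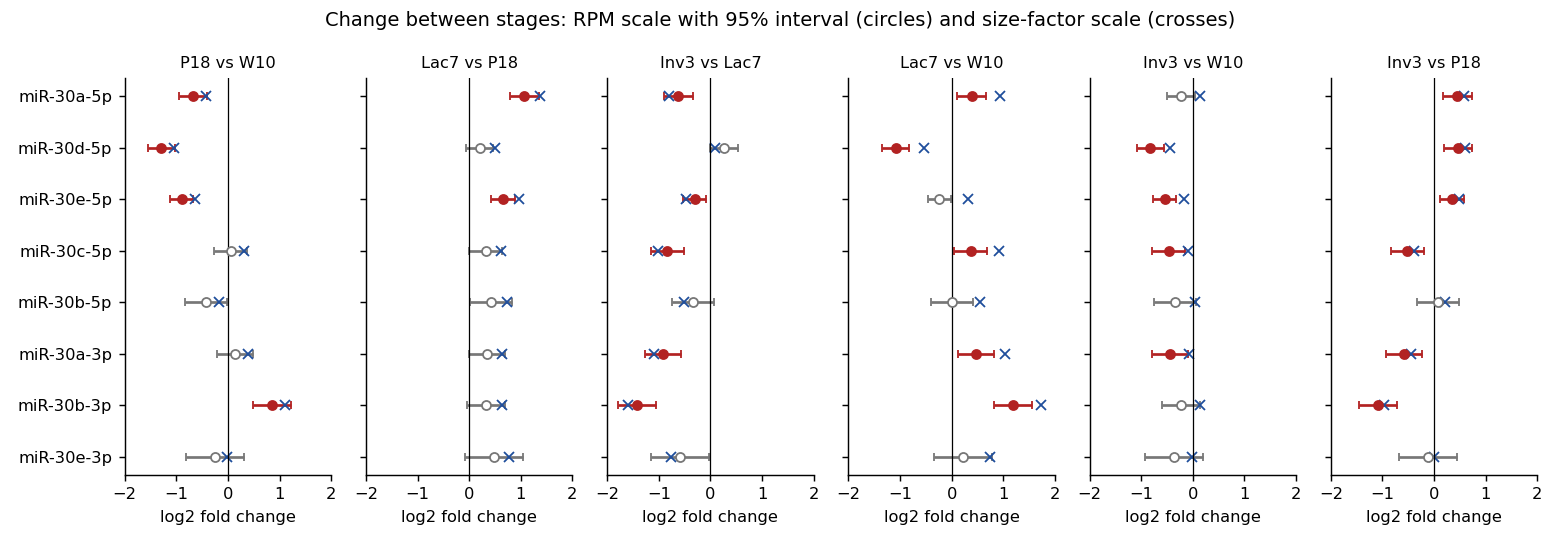
Log2 fold change of each member in the 6 comparisons, named as the later stage against the earlier one. Circles with bars are limma values on the RPM scale with 95% intervals (filled red where the adjusted p is under 0.05), and blue crosses are the values with size factors. miR-30d-5p is the only member below 0 on both scales at Lac7 against W10.

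Whether the 5p members changed differently from each other was tested on the log2 ratio of 2 members within a library, which does not depend on the total. The 10 pairs in 6 comparisons gave 60 two-sided exact permutation tests over the 924 splits of 6 mice against 6, adjusted over the 60, and the smallest p such a test can give is 0.00216. The pairs that passed numbered 6 of 10 for P18 against W10, 5 for Lac7 against P18, 6 for Inv3 against Lac7, 7 for Lac7 against W10, 1 for Inv3 against W10 and 4 for Inv3 against P18. Pairs of other miRNAs were not tested in this way, so whether these counts are unusual cannot be told. miR-30d-5p stood apart from miR-30a-5p most, by 1.47 log2 units at Lac7 against W10 (adjusted exact p = 0.0065, with no overlap of the mice), and from miR-30c-5p by 1.46 (adjusted exact p = 0.0065, no overlap). From W10 to P18 miR-30c-5p rose relative to miR-30a-5p and miR-30e-5p. miR-30a-5p minus miR-30c-5p changed by -0.73 and miR-30c-5p minus miR-30e-5p by 0.95 log2 units (adjusted exact p = 0.0065 for both, no overlap). miR-30a-5p and miR-30e-5p, which differ by a single base, changed differently at Lac7 against W10 (0.63, adjusted exact p = 0.0065, no overlap) and at Lac7 against P18 (0.41, adjusted exact p = 0.016, with overlap), and at P18 against W10 they did not pass (0.21, adjusted exact p = 0.12).

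The make-up of the 5p reads shifted accordingly. miR-30a-5p was 34.4% ± 1.27 (SD, n = 6) of them at W10, 38.2% ± 1.02 of them at P18, 49.3% ± 1.03 at Lac7 and 41.5% ± 5.21 at Inv3. miR-30d-5p took 32.7% ± 4.22, 23.8% ± 2.92, 16.8% ± 1.62 and 26.2% ± 4.54 in the same order. The share of miR-30a-5p in each Lac7 mouse (47.3% to 50%) was above that in each mouse of the other stages, and the share of miR-30d-5p in each W10 mouse (28.7% to 38.9%) was above that in each P18 and Lac7 mouse. miR-30c-5p had its largest share at P18 (12.1% ± 1.67), with 6.68% at W10, 9.24% at Lac7 and 6.72% at Inv3. miR-30e-5p held between 22.7% and 24.5% and miR-30b-5p between 1.79% and 2.33% in the stage means. At Inv3 the share of miR-30a-5p was 35.1% and 34.9% in mice 1 and 2 and 42.5% to 46.1% in the other 4. These shares restate the ratios tested between pairs and were not tested again.

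**Figure D3:**
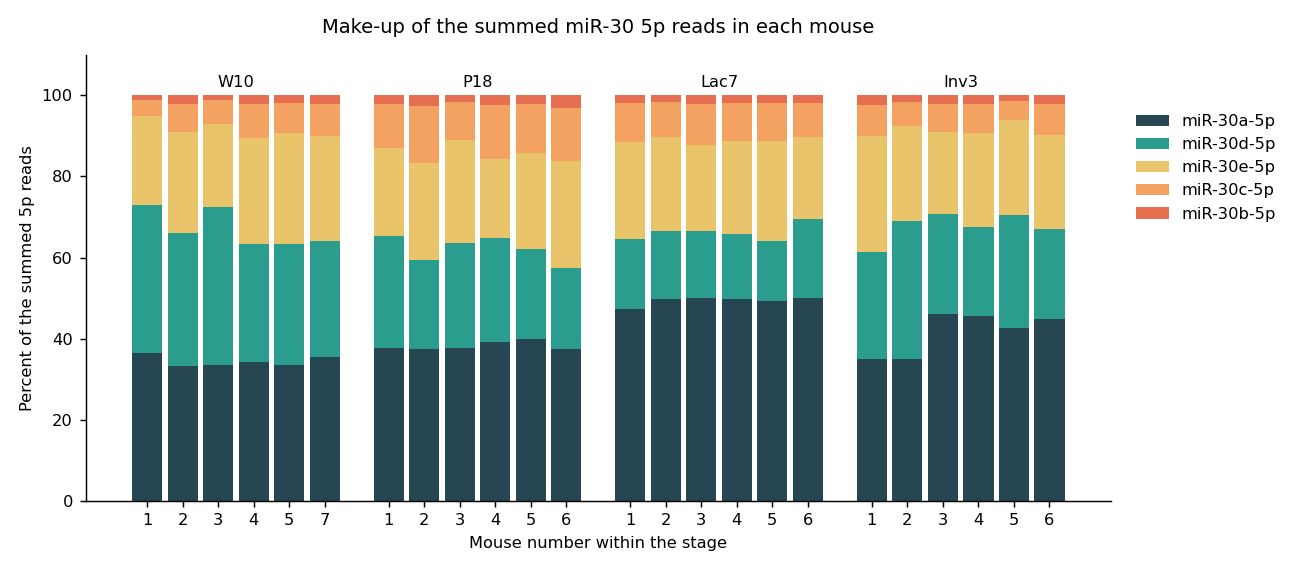
Percent of the summed 5p reads taken by each of the 5 members (colours) in each mouse, with mice grouped by stage and numbered as in the labels. The miR-30a-5p share is near 50% in all Lac7 mice, and the miR-30d-5p share falls from 28.7% to 38.9% in the W10 mice to 14.7% to 19.6% in the Lac7 mice.

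The arms of one hairpin did not keep a constant ratio. The ratio of 5p to 3p reads within a library does not depend on the total, and it was tested with limma over the 84 precursors with both arms at a mean of at least 5 RPM. The median of all 84 moved by 0.14 log2 units or less in the 6 comparisons. For miR-30a the lowest, median and highest ratio were 37.4, 44.8 and 74 at W10, 23.8, 27.8 and 28.3 at P18, 37.7, 44.7 and 47.2 at Lac7, and 45.6, 55.1 and 66.4 at Inv3. The P18 mice lay below all others. The log2 ratio at P18 was lower than at W10 by 0.82 (log2 change -0.82 ± 0.16 SE, adjusted p = 0.00024) and rose again by 0.73 to Lac7 (adjusted p = 0.0012) and by 1.03 to Inv3 (adjusted p = 5.44e-05). Lac7 and W10 were at -0.09 (95% interval -0.41 to 0.23, adjusted p = 0.67).

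For miR-30b, whose 3p arm is a large part of its reads, the ratio ranged from 4.49 to 9.49 at W10 (median 7.43), from 1.89 to 3.64 at P18 (2.96), from 2.24 to 4.53 at Lac7 (2.77) and from 3.7 to 9.88 at Inv3 (5.73). The 3p arm was 13.4% ± 3.6 of the reads of both arms at W10, 27.2% ± 5.53 of them at P18, 25.8% ± 4.37 at Lac7 and 14.4% ± 4.56 at Inv3. The log2 ratio fell by 1.28 from W10 to P18 (adjusted p = 0.00032, no overlap) and was lower at Lac7 than at W10 by 1.18 (log2 change -1.18 ± 0.25, adjusted p = 0.00033), where 1 Lac7 mouse at 4.53 overlapped the lowest W10 mouse at 4.49. It was higher at Inv3 than at Lac7 by 1.07 (adjusted p = 0.0011) and than at P18 by 1.17 (adjusted p = 0.0016). Lac7 against P18 was at 0.10 (adjusted p = 0.79).

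The 5p to 3p ratio of miR-30e had stage means of 335, 226, 242 and 304, with 143.8 to 568.9 over all mice. The SE of its log2 changes was 0.27, against 0.25 for miR-30b and 0.16 for miR-30a. limma called 0 of 6 comparisons, with 1 (P18 against W10, -0.64, adjusted p = 0.06) at an unadjusted p under 0.05. That comparison was called with a pseudocount of 10 RPM (-0.74, adjusted p = 0.0011) and without W10 mouse 3 (-0.71, adjusted p = 0.048), P18 mouse 2 (-0.76, adjusted p = 0.033) or P18 mouse 5 (-0.79, adjusted p = 0.026). The 3p arm of miR-30d is outside the 8 members but was listed, and limma called its hairpin in 4 of 6 comparisons. The ratio ranged from 90.4 to 156 at W10 and from 29.9 to 45.1 at P18, a log2 change of -1.70 ± 0.20 (adjusted p = 2.52e-07), and from 38 to 60 at Lac7 (-1.27 against W10, adjusted p = 1.1e-05).

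Counted over the 3 precursors with both arms among the members, 2 moved toward the 3p arm from W10 to P18 (miR-30a and miR-30b), against 36.9% of the 84 precursors called and 17.9% called toward 3p. miR-30a alone moved toward 5p from P18 to Lac7, against 22.6% called and 13.1% toward 5p. miR-30b alone moved toward 5p from Lac7 to Inv3, against 44% called and 20.2% toward 5p, and toward 3p from W10 to Lac7, against 51.2% called and 20.2% toward 3p. Between P18 and Inv3, 2 were called toward 5p (miR-30a and miR-30b), against 29.8% called and 13.1% toward 5p, and 0 of 3 between W10 and Inv3, against 4.76%, where limma also gave 0 of 3 an unadjusted p under 0.05. In the comparison of Lac7 with W10, the largest called changes of other precursors were toward 5p, for let-7d (3.57), miR-423 (2.57) and miR-664 (2.48), which exceed those of the miR-30 precursors.

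**Figure D4:**
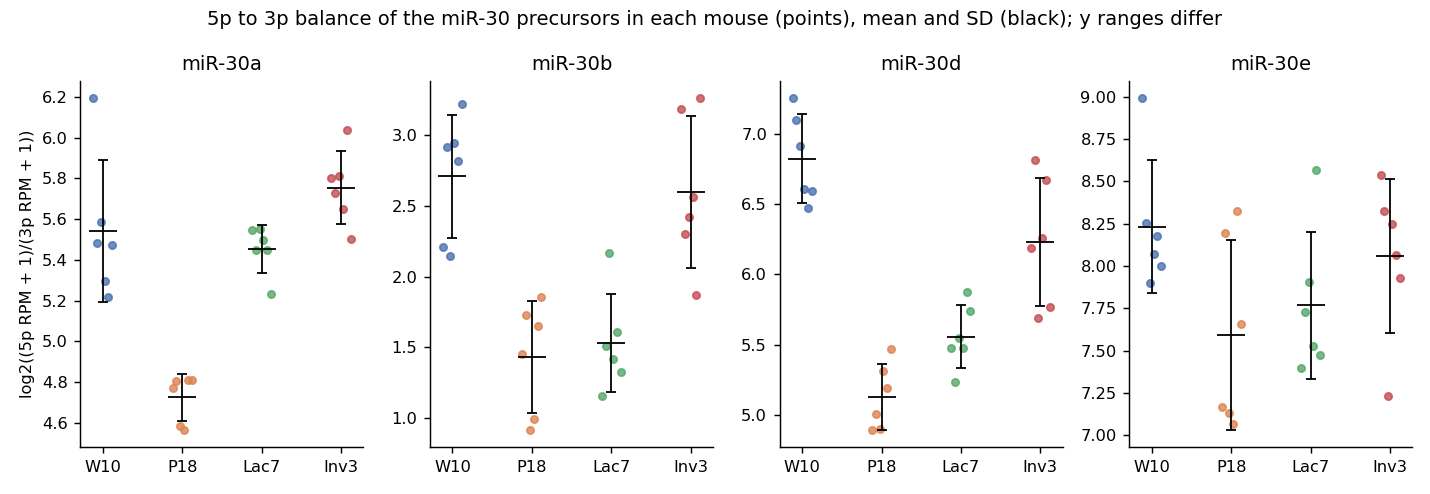
Log2 ratio of the 5p to the 3p arm, (5p RPM + 1) over (3p RPM + 1), for the precursors of miR-30a, miR-30b, miR-30d and miR-30e, with 1 point per mouse and the mean and SD in black. The vertical ranges differ between panels. The P18 points of miR-30a and the P18 and Lac7 points of miR-30d lie below all W10 points.

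Across the 24 libraries, correlations between members are given as a description without a test, since the libraries share the stage pattern and the fixed total. Pearson's r of log2(RPM + 1) was highest, at 0.87, between miR-30c-5p and miR-30a-3p, followed by 0.75 between miR-30a-3p and miR-30b-3p, 0.74 between miR-30a-5p and miR-30e-5p, 0.74 between miR-30b-5p and miR-30c-5p, 0.65 between miR-30d-5p and miR-30e-5p, 0.64 between miR-30c-5p and miR-30b-3p, and 0.61 both between miR-30b-5p and miR-30e-5p and between miR-30a-3p and miR-30e-3p. It was lowest between miR-30d-5p and miR-30b-3p (-0.51), followed by miR-30d-5p with miR-30c-5p (-0.23) and with miR-30a-3p (-0.21). miR-30b-5p and miR-30b-3p, from the same hairpin, had an r of 0.09.

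Among the 181 miRNAs outside the family whose mean reached 100 RPM in some stage, the profiles most like the 5p sum were those of miR-378c (r = 0.90), miR-1843a-5p (0.82) and miR-378a-3p (0.81), and the most opposite ones were those of miR-301a-3p (-0.77), miR-31-5p (-0.71) and miR-143-5p (-0.66). miR-378a-3p, which is made from an intron of the metabolic coactivator gene Ppargc1b, had means of 1262, 511, 811 and 503 RPM at W10, P18, Lac7 and Inv3. miR-301a-3p had 358, 733, 300.3 and 490 RPM, with its peak at P18.

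Single members had different nearest profiles. miR-30a-5p was most like miR-1839-5p (0.86) and miR-3068-5p (0.84), the latter at 347, 221, 763 and 444 RPM at W10, P18, Lac7 and Inv3. miR-30d-5p was most like miR-125a-5p (0.86) and miR-338-3p (0.85), and miR-338-3p had means of 570.1, 95.3, 74 and 131 RPM. miR-30e-5p was most like miR-29c-3p (0.91), at 2838, 883, 1674 and 1651 RPM, and miR-378c (0.87). miR-30b-5p and miR-30c-5p had let-7g-5p as the nearest profile (0.78 and 0.85), followed by miR-126b-3p (0.74) for miR-30b-5p and miR-151-5p (0.84) for miR-30c-5p.

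**Figure D5:**
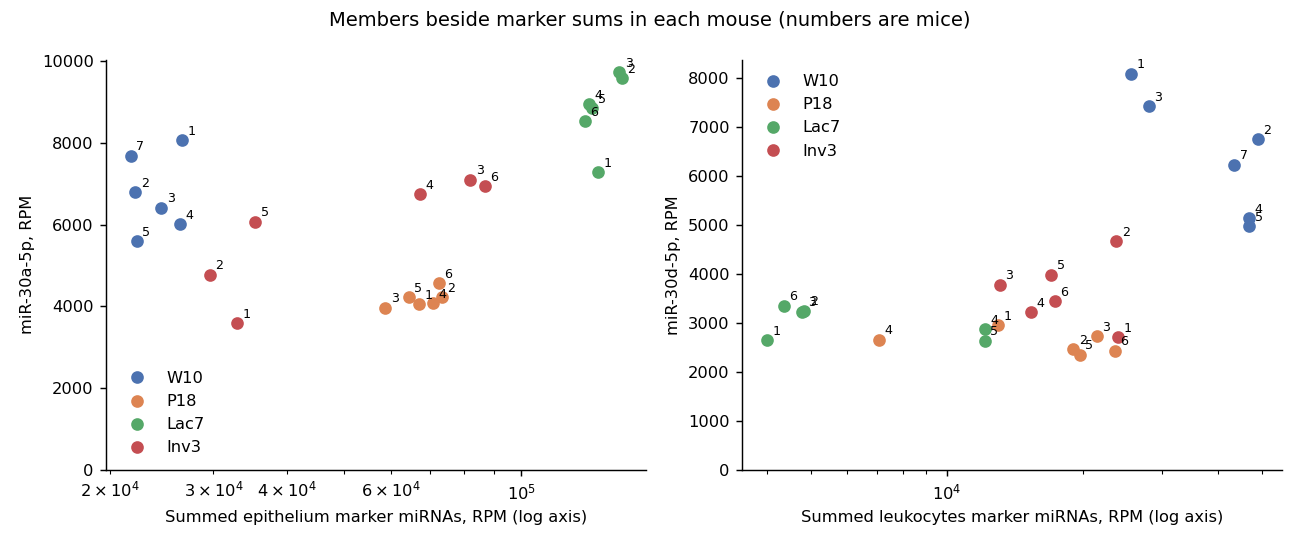
Left, miR-30a-5p against the sum of the 11 epithelial miRNAs. Right, miR-30d-5p against the sum of the 5 leukocyte miRNAs. Each point is 1 of 24 mice, labelled with its number, and the horizontal axes are logarithmic. W10 mice have miR-30a-5p at 5599 to 8060 RPM and epithelial sums of 21719 to 26495 RPM. The relation of the members to these sums was not tested.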

How the data were processed

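Reads were assigned to miRBase 22 by the authors with QuickMIRSeq, and the deposited values are RPM on the listed miRNAs of each of 24 libraries. The submitters' processing notes name Trimmomatic 0.36, cutadapt, FastQC, MultiQC and GRCm38. Whether molecular identifiers were used is not given in the sources used here. The design text of the series gives lactation day 3, involution day 7 and the inguinal gland alone, whereas the labels and methods give day 7 and day 3, used here, and the methods name the abdominal and inguinal glands. Whole reads were recovered from the RPM steps in all libraries (100% of values within 0.006 RPM), although a second check of the steps did not accept W10 mouse 7, where 1 read is worth 0.9945 RPM. The recovered totals had stage medians of 967413 (W10), 952080 (P18), 693166 (Lac7) and 1030978 (Inv3).

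The 544 miRNAs whose stage mean reached 1 RPM at any stage were fitted with limma 3.58.1 (eBayes with a trend, R 4.3.3) on log2(RPM + 1) in one model of 4 stages, without a block, and were called at a Benjamini-Hochberg adjusted p under 0.05. The arm ratio was fitted likewise without a trend. Pairs of members were compared by exact permutation (numpy 2.4.6), and the Wilson intervals were computed with scipy 1.17.1. All 8 members were named, with other listed miR-30 names, miRNAs with the same seed, the nearest profiles and marker lists. The members and lists were chosen with earlier results of these data known. In data simulated on the comparison of P18 with W10 (544 miRNAs, 200 changed), limma called 164 changed and 2 unchanged miRNAs. How often limma calls changes of the size found for the members was not tested. Alternatives were pseudocounts of 0.1 and 10 RPM, no filter or 100 RPM, 12 libraries per fit, size factors, edgeR 4.0.16 and DESeq2 1.42.0 on whole reads, a replicate block, and leaving out each mouse. Leaving out Inv3 mice 1, 2 and 5, W10 mice 1 and 3 or Lac7 mice 4 and 5 was chosen after seeing the data. Sequences and positions are from RefSeq and GENCODE on GRCm38.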

Additional observations from a re-analysis of the deposited data

Results flagged for a closer look

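In 48 groups of 6 mice, 4 had a mouse set apart by more than Dixon's 95% limit for 6 values (a gap to the next mouse, as a share of the group's range), where about 1 in 20 groups passes by chance. Lac7 mouse 3 had miR-30b-5p above the others (430 RPM, gap 0.627 of the range). Lac7 mouse 6 had a lower miR-30a arm ratio than the others (37.7, gap 0.675 on the log2 scale). W10 mouse 1 had a higher miR-30e arm ratio than the others (568.9, gap 0.674), on the 8.63 RPM of its miR-30e-3p. Inv3 mouse 1 had the lowest 5p sum of its stage (10256 RPM, gap 0.654), and it also had the lowest sum of the fat miRNAs (24376 RPM) and a low epithelial sum (32925 RPM).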

How the results depend on the processing

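Size factors, edgeR and DESeq2 on whole reads, in this order, moved the number of called members from 2 to 8, 7 and 8 for Lac7 against P18 (44%, 45.4% and 46% of all miRNAs with an adjusted p called), from 5 to 8, 7 and 8 for Lac7 against W10 (62.3%, 58.3% and 55.3%) and from 4 to 1, 1 and 1 for Inv3 against W10 (29.5%, 31.8% and 32.5%). They gave 4, 5 and 5 for P18 against W10 (39.5%, 39.3% and 38.4%), 7, 5 and 7 for Inv3 against Lac7 (46%, 46% and 49.2%) and 6, 5 and 6 for Inv3 against P18 (26.3%, 25.6% and 28.9%). A fit of the 12 libraries compared gave 4 for Lac7 against P18 (47.4%) and 2 for Inv3 against W10 (37.1%), where leaving out Inv3 mice 1, 2 and 5 also gave 2 (40.7%). Without these Inv3 mice, 4 members were called for Inv3 against Lac7 (33.4%) and 4 for Inv3 against P18 (24%). Without W10 mice 1 and 3, the counts were 5 for Inv3 against W10 (39.9%), 5 for P18 against W10 (41.4%) and 4 for Lac7 against W10 (63.9%). The 5p sum moved to 16000 (W10) and 21352 (Lac7) rescaled RPM with size factors, and to 35138, 23243, 30722 and 29788 RPM at W10, P18, Lac7 and Inv3 on a total without the 5 most abundant other miRNAs.

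Uncalled log2 fold changes that changed sign, with size factors, edgeR and DESeq2 in this order, were those of Inv3 against W10 for miR-30a-5p (0.15, 0.21, 0.17), miR-30b-5p (0.037, 0.056, 0.011) and miR-30b-3p (0.14, 0.24, 0.20), and that of Lac7 against W10 for miR-30e-5p (0.32, 0.22, 0.31). With edgeR, Inv3 against W10 was 0.0056 for miR-30a-3p, called on the RPM scale, and 0.035 for miR-30e-3p, and P18 against W10 was 0.052 for miR-30e-3p. With size factors, Inv3 against P18 was 0.0016 for miR-30e-3p. Without Inv3 mice 1, 2 and 5, miR-30a-5p was at 0.047 and the miR-30b arm balance at 0.043 for Inv3 against W10, and miR-30e-3p at 0.19 for Inv3 against P18. Without W10 mice 1 and 3, miR-30b-5p was at -0.25 and the miR-30a arm balance at 0.088 for Lac7 against W10, and miR-30c-5p at -0.13 for P18 against W10. Without Lac7 mice 4 and 5, miR-30b-5p was at -0.0049 for Lac7 against W10, and 2, 4 and 4 members were called for Lac7 against P18, Inv3 against Lac7 and Lac7 against W10 (43.2%, 43.4% and 61.2% of all miRNAs). The cause was not tested.

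Leaving out 1 mouse at a time, called members ran from 4 to 5 (P18 against W10), 2 to 3 (Lac7 against P18), 4 to 6 (Inv3 against Lac7), 4 to 5 (Lac7 against W10), 2 to 4 (Inv3 against W10) and 5 to 6 (Inv3 against P18), where 38.8% to 42.5%, 43.5% to 45%, 42.3% to 47.5%, 64% to 65.8%, 35.2% to 39.9% and 24.8% to 28% of all miRNAs were called, and called pairs from 5 to 7, 4 to 6, 5 to 7, 7 to 8, 0 to 2 and 4 to 5. Signs changed around 0 for miR-30b-5p (Lac7 against W10, -0.11 to 0.11, and Inv3 against P18, -0.038 to 0.20), miR-30c-5p (P18 against W10, -0.057 to 0.13), miR-30e-3p (Inv3 against P18, -0.27 to 0.013), and the arm balance of miR-30b (Lac7 against P18, -0.027 to 0.19, and Inv3 against W10, -0.24 to 0.0401) and miR-30a (Lac7 against W10, -0.15 to 0.045). They also changed for the differences of miR-30b-5p and miR-30e-5p (Inv3 against Lac7, -0.12 to 0.051), miR-30a-5p and miR-30c-5p (Lac7 against W10, -0.054 to 0.18), miR-30c-5p and miR-30e-5p (Inv3 against W10, -0.036 to 0.17) and miR-30a-5p and miR-30d-5p (Inv3 against P18, -0.10 to 0.11).

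Mice with the same number did not deviate together (mean r -0.05 over 33 pairs of libraries, against 0.0039 over 183 others). With a replicate block, which drops W10 mouse 7, the called members stayed at 4, 2, 5, 5, 4 and 6 in the order above (40.1%, 44.3%, 45.8%, 63.8%, 36.9% and 26.5% of all miRNAs).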

Other observations

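The other listed miR-30 names were rarer than most members. miR-30c-2-3p, from the partner gene of Mir30a, had means of 24.8 ± 5.49 (SD, n = 6), 42 ± 7.22, 43.5 ± 7.03 and 23.2 ± 10.8 RPM at W10, P18, Lac7 and Inv3, and limma called it higher at P18 (log2 fold change 0.76, adjusted p = 0.023) and at Lac7 (0.81, adjusted p = 0.0099) than at W10, without overlap of the mice, and lower at Inv3 than at Lac7 (-1.01, adjusted p = 0.0029) and than at P18 (-0.96, adjusted p = 0.0079). miR-30c-1-3p, from the other precursor of miR-30c-5p, had means of 1.44 to 3.25 RPM, around the limit of 3 reads, and limma, edgeR and DESeq2 called 0 of its 6 comparisons, with 1 at an unadjusted p under 0.05 in limma, Lac7 against W10 (-0.90, adjusted p = 0.058). miR-30d-3p had means of 55.1, 74.8, 63.7 and 48.3 RPM and with limma on the RPM scale passed between P18 and Inv3 (-0.64, adjusted p = 0.015), while with size factors it also passed at P18 (0.66, adjusted p = 0.007) and Lac7 (0.73, adjusted p = 0.0017) against W10 and at Inv3 against Lac7 (-0.59, adjusted p = 0.013).

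miR-30f is annotated on the strand opposite to Mir30e at the same coordinates, and its seed starts 1 base later in the shared motif of the 5p arms (miR-30f: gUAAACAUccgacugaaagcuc). It had means of 37.3 ± 5.22, 26.6 ± 3.11, 25.3 ± 7.7 and 23 ± 3.21 RPM at W10, P18, Lac7 and Inv3 and was lower at Lac7 (-0.59, adjusted p = 0.011) and at Inv3 (-0.67, adjusted p = 0.0078) than at W10 on the RPM scale. Both calls were lost with size factors (-0.05, adjusted p = 0.84, and -0.31, adjusted p = 0.25), edgeR (-0.10, adjusted p = 0.65, and -0.28, adjusted p = 0.27) and DESeq2 (-0.01, adjusted p = 0.96, and -0.32, adjusted p = 0.23).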
